A study of Mus musculus with 16 samples.

Results

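Kit and 9 cytokine receptor genes of the myeloid and erythroid lineages were measured with RNA-seq in sorted LSK cells of mouse bone marrow, which lack lineage antigens, carry Sca-1 and c-Kit and include the hematopoietic stem cells and multipotent progenitors. The genes were chosen by symbol: Kit, Csf1r, Csf2ra, Csf2rb, Csf2rb2, Csf3r, Il1r1, Il3ra, Il6st and Epor. All 10 were found among 53342 annotated genes, and all 10 passed the filter on low counts that left 16482 genes for testing. The 4 groups were Gata2 +9.5(Ets)-/- mice given 250 mg/kg 5-fluorouracil (5-FU; 3 samples), wild-type mice given the same dose (3 samples), Gata2 +9.5(Ets)-/- mice given PBS (5 samples) and wild-type mice given PBS (5 samples). The mutant mice carry, on both alleles, a C-to-T change in the Ets motif of the +9.5 enhancer of Gata2, which lies in an intron of that gene. 5-FU is a drug that kills dividing blood cells. All mice were of C57BL/6J background and 8 to 14 weeks old, and bone marrow was taken 10 days after the injection. Between 3000 and 10000 cells were sorted per replicate. The labels do not say whether replicates were separate mice, so p values measure the spread between these samples, which may be technical.

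Cytokine receptors tell blood progenitors which growth factors they can answer. Kit and Csf1r are receptor tyrosine kinases, for stem cell factor and for macrophage colony-stimulating factor. The receptors for GM-CSF, IL-3, G-CSF, erythropoietin and the IL-6 family have no kinase of their own and signal through JAK kinases and STAT factors, while the IL-1 receptor signals through MyD88 and IRAK kinases. In mice the IL-3 receptor can use either of 2 beta chains, Csf2rb, which also serves GM-CSF and IL-5, or its neighbour Csf2rb2, which serves IL-3 alone.

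Total expected counts were 19370153 to 28883365 per library, and the expected counts of the receptor genes ran from 60.5 (Csf2rb2) to 21483 (Kit) per library. The libraries did not hold LSK transcripts alone. Immunoglobulin genes took 5.69 to 26.6% of counts in the mutant 5-FU libraries, 0.0392 to 0.332% in wild-type 5-FU, 3.67 to 50.2% in mutant PBS and 6.37 to 44.2% in wild-type PBS. The antibodies named for the negative part of the gate were against B220, CD3, CD4, CD5 and CD8, none of them a marker of granulocytes, monocytes or red cells. The summed level of 9 neutrophil granule genes was 2.87 to 89.1 CPM in mutant 5-FU, 6.94 to 47.8 in wild-type 5-FU, 3729 to 24190 in mutant PBS and 2977 to 21020 CPM in wild-type PBS. The summed level of 15 monocyte and macrophage genes was 903 to 1249 CPM in mutant 5-FU, 157 to 306 in wild-type 5-FU, 1194 to 12960 in mutant PBS and 1645 to 9586 CPM in wild-type PBS. Ly6c2 and Lyz2 made up most of that monocyte and macrophage sum. Their means were 485 and 394 CPM in mutant 5-FU and 14.0 and 155 CPM in wild-type 5-FU. In PBS libraries they were 3152 and 1098 CPM in the mutant and 2899 and 1272 CPM in wild type. For 8 granulocyte-monocyte progenitor genes the summed level was 257.5 to 406 CPM in mutant 5-FU and 309 to 3723 CPM in wild-type 5-FU. Under PBS that sum was 967 to 7636 CPM in the mutant and 1292 to 5728 CPM in wild type. All 8 were lower in the mutant than in wild type after 5-FU (median log2 difference −2.205), with 0 past the threshold used below. The gate antigen Ly6a (Sca-1) was present in every library, at 114 CPM or more, as was Kit. The labels also give each sample a code of unstated meaning, which starts with a zero for the first 3 replicates of mutant 5-FU, mutant PBS and wild-type PBS, and with no zero otherwise. The writing of the codes and the genotype therefore cannot be told apart after 5-FU. Where that writing enters a model below, its effect is set by the PBS libraries alone. Among these, the immunoglobulin share was 28.9 to 50.2% with a leading zero and 3.67 to 25.2% without one. The writing and the share are thus not separate checks.

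Levels below are CPM, counts relative to the library size scaled with TMM factors, and differences are log2 fold changes ± SE from the quasi-likelihood F test of edgeR on all 16 libraries. A gene is said to rise or fall where its Benjamini-Hochberg p over the 16482 genes tested was under 0.05. In bulk RNA, fewer cells of a type and less RNA per cell cannot be told apart.

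**Figure D1:**
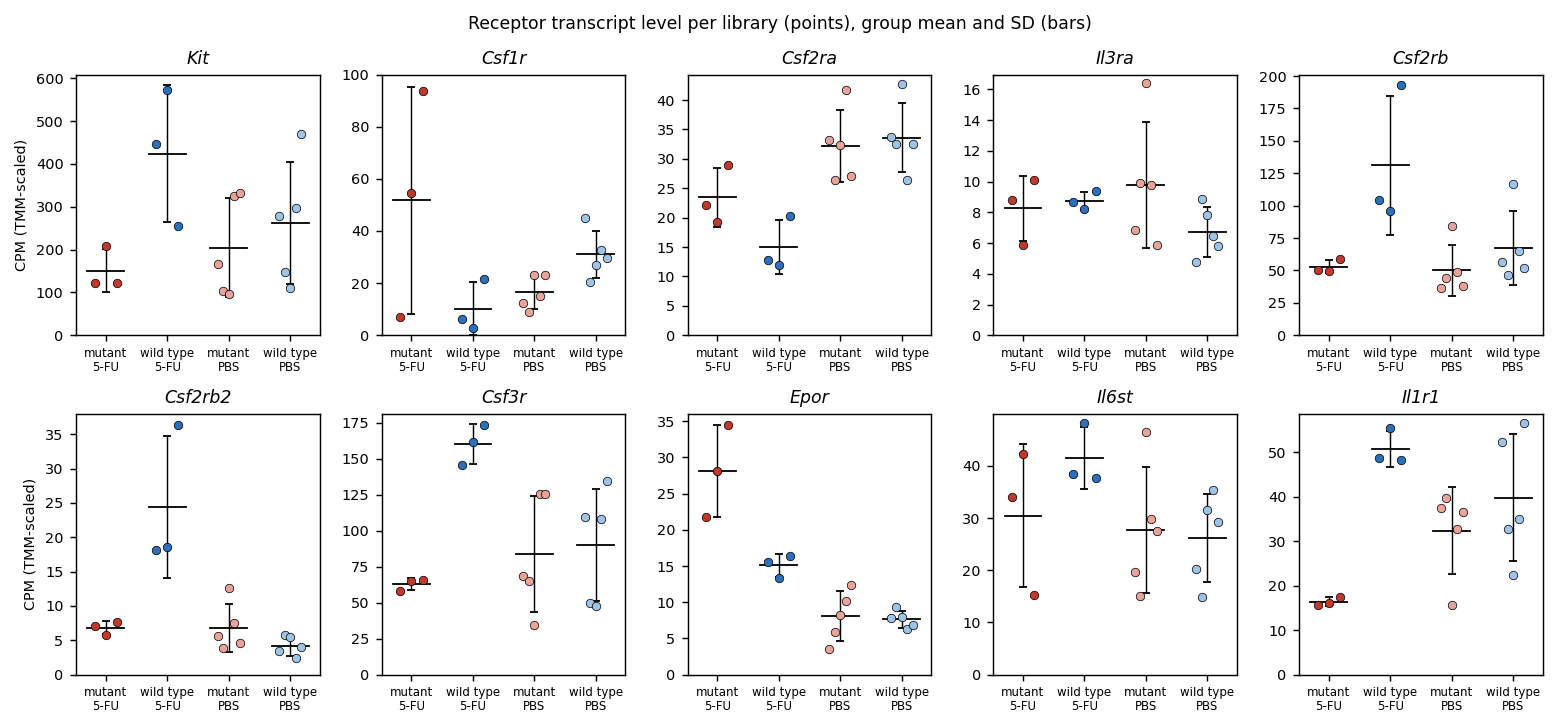
Level of each of the 10 receptor genes in every library (y axis: TMM-scaled CPM, linear from 0, a scale of its own per gene), with the groups from left to right mutant 5-FU, wild-type 5-FU, mutant PBS and wild-type PBS; each point is 1 library the long horizontal line is the group mean and the error bar ± SD. Csf2rb2 lies at 18.2 to 36.3 CPM in wild-type 5-FU and at 12.6 CPM or lower in all other libraries.

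After 5-FU, the mutant had less mRNA than wild type of 2 receptor genes that passed the test, the IL-3-specific beta chain Csf2rb2 (−1.84 ± 0.44) and the IL-1 receptor Il1r1 (−1.63 ± 0.34). None of the 10 rose. Of all genes 0.461% were called lower and 1.49% higher in the mutant, 1.95% together. For 5 receptor genes, Kit, Csf2rb, Csf2rb2, Csf3r and Il1r1, every mutant library lay below every wild-type library, and for 1, Epor, every mutant library lay above; among all genes 39.4% did not overlap in this way, 18% below and 21.5% above. The median log2 difference was −0.88 over the 10 genes and 0.07 over all genes tested.

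In wild-type cells, 5-FU was followed by a rise of Csf2rb2 (2.53 ± 0.38) and of the erythropoietin receptor Epor (0.99 ± 0.31) and by a fall of the GM-CSF receptor alpha chain Csf2ra (−1.16 ± 0.24). Among all genes 5.55% rose and 9.31% fell, so that 14.9% were called. Every 5-FU library lay above every PBS library for 4 of the 10, Csf2rb2, Csf3r, Epor and Il6st, and below for 1, Csf2ra, beside 31.8% of all genes without overlap (16% above, 15.8% below). In the mutant, Epor rose after 5-FU (1.81 ± 0.31), none of the 10 fell, and 2.2% of all genes were called (0.837% higher, 1.36% lower). Epor was also the 1 receptor gene without overlap in the mutant, beside 9.99% of all genes (5.05% above, 4.94% below). Over the 10 genes the median response was −0.12 for the mutant, beside −0.03 over all genes, and 0.68 for wild type, beside −0.11 over all genes. The 2 genotypes under 5-FU and the 2 5-FU responses share libraries, so these comparisons are not independent of each other.

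Under PBS, edgeR called 0 of the 10 receptor genes between mutant and wild type, with 0 of the 10 at an unadjusted p under 0.05 (3.28% of all genes), and 0.0182% of all genes. DESeq2 and limma-voom with sample quality weights also called 0. The differences ran from −0.91 ± 0.57 (Csf1r) to 0.70 ± 0.34 (Csf2rb2). The test of whether the 5-FU response differed between genotypes called 0 of the 10 and 0.589% of all genes (0.558% positive, 0.0303% negative). Of the 10, 5 had an unadjusted p under 0.05 there, beside 10.8% of all genes. DESeq2 called 3 of the 10 and 582 of all genes, and limma-voom with sample quality weights 3 and 736. The smallest adjusted p from edgeR was that of Csf2rb2 (−2.53 ± 0.56, adjusted p = 0.0522).

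**Figure D2:**
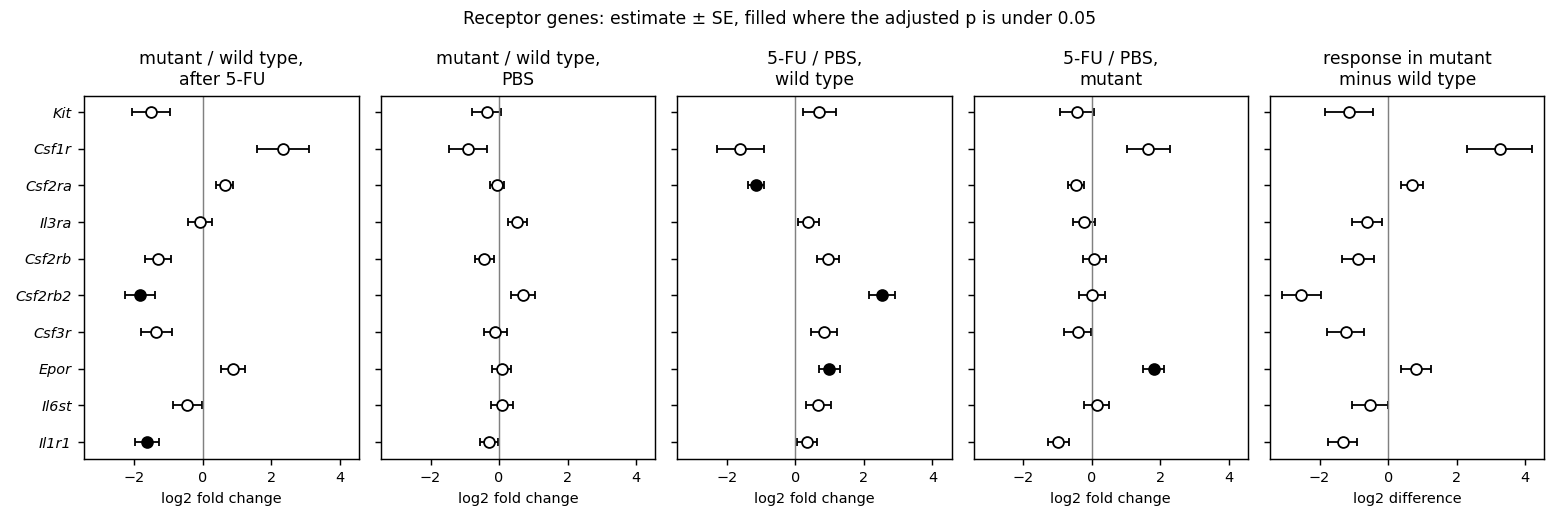
Log2 fold change (x axis) of the 10 receptor genes in the 5 comparisons; the last panel is the 5-FU response in the mutant minus that in wild type, points are edgeR estimates, bars are ± SE, and filled points have an adjusted p under 0.05. Filled points are Csf2rb2 and Il1r1 in the first panel, Csf2ra, Csf2rb2 and Epor in the third, and Epor in the fourth.

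Kit (chromosome 5, 75574916 to 75656722, plus strand, GRCm38) encodes the receptor for stem cell factor. Since c-Kit on the surface was part of the sorting gate, its mRNA describes cells already chosen for the protein. Per transcript length it was the most abundant of the 10 in every group, with means of 42.7 ± 14.3 TPM (SD, n = 3) in mutant 5-FU, 207 ± 91.7 in wild-type 5-FU (n = 3), 59.3 ± 55.1 in mutant PBS (n = 5) and 68.7 ± 70.4 TPM in wild-type PBS (n = 5). The G-CSF receptor Csf3r came next in every group, and Kit lay above it in every library but 1 of wild-type 5-FU. TPM serve here to rank genes within a group. On log2(TPM + 1) the median of all genes itself differed between groups, by 1.01 for 5-FU in wild type and by −0.59 for genotype after 5-FU. In CPM, Kit stood at 121, 208 and 121 in mutant 5-FU replicates 1 to 3, against 447, 572 and 254 in wild-type 5-FU. Under PBS, Kit was at 166, 104, 95.5, 324 and 332 CPM in mutant replicates 1 to 5 and at 278, 148, 111, 298 and 471 CPM in those of wild type. After 5-FU the genotypes did not overlap, but the difference of −1.50 ± 0.56 missed the threshold (adjusted p = 0.172). The response to 5-FU was −0.44 ± 0.49 in the mutant (adjusted p = 0.794) and 0.70 ± 0.48 in wild type (adjusted p = 0.289), and the difference between these was −1.14 ± 0.69 (adjusted p = 0.564). Once the writing of the codes entered the model, the difference after 5-FU was −0.23 (adjusted p = 0.964; range over 19 alternatives 0.00592 to 0.964).

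Csf1r (chromosome 18, 61100598 to 61132149, plus strand) encodes the receptor for macrophage colony-stimulating factor, which monocytes and macrophages carry. The mutant 5-FU libraries held 7.0, 54.6 and 93.8 CPM, against 6.13, 2.82 and 21.7 CPM in wild-type 5-FU. Mutant PBS libraries had 12.5, 8.95, 23.0, 15.1 and 23.1 CPM, and wild-type PBS libraries 45.1, 20.2, 27.1, 32.6 and 29.8 CPM. The 5-FU groups overlapped, with mutant replicate 1 as low as the wild-type libraries, and the difference of 2.35 ± 0.76 missed the threshold (adjusted p = 0.126). Without mutant 5-FU replicate 1 it was 2.86 with an adjusted p of 0.0455, and the difference between the responses, 3.25 ± 0.94 with all libraries (adjusted p = 0.147), was 3.77 (adjusted p = 0.0399). In wild type the response was −1.61 ± 0.69 (adjusted p = 0.108), and −2.78 (adjusted p = 0.0365) without wild-type 5-FU replicate 3. Each was the 1 fit that passed among those without 1 library, which numbered 6, 16 and 8 in this order. In the rest the adjusted p reached 0.434, 0.408 and 0.333. The library left out was the lowest of mutant 5-FU or the highest of wild-type 5-FU. All 15 genes of the monocyte and macrophage list had a positive log2 difference between mutant and wild type after 5-FU. Of them 2 passed the threshold, beside 1.49% of all genes called higher, and none of the 15 was at 0 in every library of a group. The part of such cells in the level of Csf1r was not tested.

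The alpha chains bind the ligand and give the receptor its specificity. Csf2ra (chromosome 19, 61223957 to 61228429, minus strand), the alpha chain for GM-CSF, had 22.1, 19.2 and 29.0 CPM in mutant 5-FU and 12.8, 11.9 and 20.3 CPM in wild-type 5-FU. The PBS libraries ran from 26.4 to 41.7 CPM in the mutant and from 26.4 to 42.7 CPM in wild type. Every wild-type 5-FU library therefore lay below every wild-type PBS library, with a log2 change of −1.16 ± 0.24 (adjusted p = 0.00607), while 1 of the 3 mutant 5-FU libraries lay within the range of mutant PBS (−0.46 ± 0.23, adjusted p = 0.431). The call in wild type ended without wild-type 5-FU replicate 2 (−1.01, adjusted p = 0.0575), among codes without a leading zero (−0.98, adjusted p = 0.0566) and within 1 code prefix (−0.54, adjusted p = 0.329). On TPM the value was 0.29 (adjusted p = 0.661), where the median of all genes was 1.01; relative to that median it was −0.72. Adjusted p values over the 23 alternatives ran from 3.38e-05 to 0.661.

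Il3ra (chromosome 14, 14346275 to 14356011, plus strand), the alpha chain for IL-3, was expressed at 5.90 to 10.1 CPM in mutant 5-FU, 8.20 to 9.39 in wild-type 5-FU, 5.90 to 16.4 in mutant PBS and 4.75 to 8.84 CPM in wild-type PBS. The groups overlapped in all 4 pairwise comparisons, and the differences lay between −0.24 ± 0.32 (5-FU against PBS in the mutant, adjusted p = 0.838) and 0.53 ± 0.28 (mutant against wild type under PBS, adjusted p = 1). After 5-FU the genotypes differed by −0.08 ± 0.36 (adjusted p = 0.917).

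The beta chains carry the signal. Csf2rb (chromosome 15, 78325752 to 78353847, plus strand) and Csf2rb2 (the same chromosome, 78282507 to 78305721, minus strand) lie 20030 bases apart and point away from each other. Their coding sequences are 95.2% identical (2503 of 2628 aligned bases, GENCODE M21), and 334 of the stretches of 100 bases in each transcript, 7.2%, also occur in the other. How reads from the stretches they share were divided between the 2 genes was set by the authors' counting, so the split is uncertain. The first 90 coding bases are shown because they show how alike the chains are; the capitals mark the 3 bases that differ.
Csf2rb: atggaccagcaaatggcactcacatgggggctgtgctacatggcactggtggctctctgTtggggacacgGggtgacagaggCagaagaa
Csf2rb2: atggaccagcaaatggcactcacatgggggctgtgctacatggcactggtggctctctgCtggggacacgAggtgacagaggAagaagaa

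Csf2rb2 was read at 7.12, 5.74 and 7.59 CPM in mutant 5-FU, against 18.2, 18.6 and 36.3 CPM in wild-type 5-FU. The mutant PBS libraries had 5.59, 3.90, 12.6, 7.49 and 4.59 CPM, and the wild-type PBS libraries 3.40, 5.83, 5.53, 2.39 and 3.95 CPM. Its high level was thus seen in the wild-type 5-FU libraries, all 3 of which lay above the other 13. In wild type the rise after 5-FU was 2.53 ± 0.38 (adjusted p = 0.000876), and it passed in all 23 alternatives, between 2.14 and 3.83. In the mutant the response was 0.0040 ± 0.39 (adjusted p = 0.998). Among wild-type libraries with codes of the same writing the rise was 2.92 (adjusted p = 0.00829), and within 1 code prefix 3.51 (adjusted p = 0.0238). After 5-FU the mutant was lower, with a difference of −1.84 ± 0.44 (adjusted p = 0.0445). This call ended without any 1 of the 6 5-FU libraries (−2.01 to −1.43, adjusted p = 0.0953 to 0.141), with upper-quartile scaling (−1.74, 0.078) and when the writing of the codes was modelled (−2.28, 0.0971). The direction held in all 19 alternatives, 11 of which passed. The difference between the responses, −2.53 ± 0.56 (adjusted p = 0.0522), passed in 10 of 28 alternatives, among them those without wild-type PBS replicate 3 (−2.65, 0.0458), mutant PBS replicate 2 (−2.68, 0.0497), replicate 3 (−2.25, 0.0277) or replicate 5 (−2.64, 0.046). Wild-type 5-FU replicate 3, at 36.3 CPM of Csf2rb2, also held the 3723 CPM of granulocyte-monocyte progenitor genes. Of the wild-type 5-FU libraries it was the highest for Csf1r, Csf2ra, Il3ra, Csf2rb, Csf3r and Epor too. For Kit, Il6st and Il1r1 it was the lowest. The part of such cells in these levels was not tested.

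Csf2rb, at 50.4, 49.6 and 58.7 CPM in mutant 5-FU and 104, 95.6 and 193 CPM in wild-type 5-FU, did not overlap between the genotypes after 5-FU, with a difference of −1.31 ± 0.38 (adjusted p = 0.0876). Under PBS the mutant libraries had 36.4, 44.1, 84.1, 48.6 and 37.7 CPM and the wild-type libraries 56.6, 46.8, 117, 64.7 and 52.1 CPM. In both PBS groups replicate 3, the library with the highest immunoglobulin share, was also the highest in Csf2rb by CPM. By TPM it was the lowest of mutant PBS (5.45) and lay under the mean of wild-type PBS (8.32, mean 11.6). The wild-type response was 0.96 ± 0.33 (adjusted p = 0.0568), and 1.25 (adjusted p = 0.012) without wild-type PBS replicate 3. That was the 1 fit of 8 without 1 library that passed (adjusted p up to 0.244). Without the library of the highest immunoglobulin share in each of 3 groups (mutant 5-FU replicate 1 at 26.6%, mutant PBS replicate 3 at 50.2% and wild-type PBS replicate 3 at 44.2%), a choice made after seeing the data, Csf2rb passed both for genotype after 5-FU (−1.29, adjusted p = 0.0361) and for 5-FU in wild type (1.25, adjusted p = 0.00249).

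As a share of the summed TPM of both beta chains, Csf2rb2 made up 11.8 ± 1.04% (SD, n = 3) in mutant 5-FU, 16.1 ± 0.762% in wild-type 5-FU (n = 3), 12.1 ± 2.31% in mutant PBS (n = 5) and 6.56 ± 3.02% in wild-type PBS (n = 5). The wild-type 5-FU libraries, at 15.2 to 16.7%, lay above all others, whose highest value was 13.7%. The share is a description and was not tested.

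**Figure D3:**
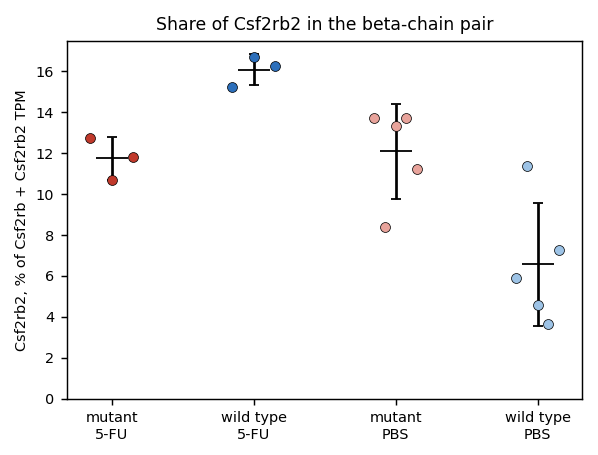
Share of Csf2rb2 in the summed TPM of Csf2rb and Csf2rb2 (y axis, percent) by group; each point is 1 library, the horizontal line the mean and the bar ± SD. The 3 wild-type 5-FU libraries lie at 15.2 to 16.7%, and the wild-type PBS libraries at 3.67 to 11.4%.

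Csf3r (chromosome 4, 126024550 to 126044440, plus strand) encodes the receptor for G-CSF, the main growth factor of neutrophils. It had 58.0, 65.0 and 66.0 CPM in mutant 5-FU and 146, 162 and 174 CPM in wild-type 5-FU. PBS libraries had 68.6, 65.1, 34.5, 125 and 125 CPM in the mutant, and 110, 50.1, 47.4, 108 and 135 CPM in wild type. The mutant 5-FU libraries lay close together and below all wild-type 5-FU libraries, which in turn lay above every wild-type PBS library. Neither the difference between genotypes (−1.35 ± 0.44, adjusted p = 0.128) nor the wild-type response (0.83 ± 0.38, adjusted p = 0.125) passed. In a model with the writing of the codes, the difference between genotypes after 5-FU was −0.36 (adjusted p = 0.914; range over 19 alternatives 0.00317 to 0.914).

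Epor (chromosome 9, 21958897 to 21963506, minus strand) encodes the receptor for erythropoietin, which red cell progenitors need. It had 21.7, 28.1 and 34.5 CPM in mutant 5-FU and 15.6, 13.3 and 16.3 CPM in wild-type 5-FU. Under PBS it stood at 3.56, 5.88, 8.19, 10.2 and 12.3 CPM in the mutant and at 7.85, 9.28, 7.89, 6.25 and 6.83 CPM in wild type. In both genotypes all 5-FU libraries lay above all PBS libraries. The rise in the mutant was 1.81 ± 0.31 (adjusted p = 0.00437) and passed without each of the 8 libraries in turn (1.62 to 2.01). It was 2.23 (adjusted p = 0.0339) among codes with a leading zero and 2.58 (adjusted p = 0.0104) within 1 code prefix. The mutant call ended on TPM (2.10, adjusted p = 0.142, and 2.40, 0.173, with a pseudocount of 1 and of 0.1) and in a fit of both groups alone (1.79, adjusted p = 0.0515), out of a range over 23 alternatives of 4.98e-06 to 0.173. The wild-type rise of 0.99 ± 0.31 (adjusted p = 0.0422) was lost without any 1 of the 8 libraries (0.93 to 1.08, adjusted p = 0.0548 to 0.119) and passed in 10 of 23 alternatives, and it was 1.20 (adjusted p = 0.018) among codes of the same writing and 1.32 (adjusted p = 0.136) within 1 prefix. The genotypes differed after 5-FU by 0.90 ± 0.35 (adjusted p = 0.189), and the responses by 0.82 ± 0.44 (adjusted p = 0.524). The summed level of 10 erythroid marker genes was 575 to 724 CPM in mutant 5-FU, 527 to 671 in wild-type 5-FU, 870 to 1552 in mutant PBS and 1067 to 2036 CPM in wild-type PBS. The sum of that list was thus lower in the 5-FU libraries in which Epor was higher, and the red cell anion exchanger Slc4a1 was at 0 in wild-type 5-FU. Of the 10, 7 fell after 5-FU in wild type (median −5.63) and 0 in the mutant (median −1.09), beside 9.31% and 1.36% of all genes. Between genotypes after 5-FU, 6 of the 10 had a positive difference (median 1.84). Of these, 1 passed as higher in the mutant, beside 1.49% of all genes. The summed level of 8 megakaryocyte and platelet genes was higher in the 5-FU libraries, as Epor was, at 290.4 to 420.4 CPM in mutant 5-FU, 405 to 535 in wild-type 5-FU, 119.9 to 175 in mutant PBS and 64.3 to 105 CPM in wild-type PBS, with none of the 8 at 0 in a group. After 5-FU 2 of the 8 rose in the mutant and 4 in wild type, beside 0.837% and 5.55% of all genes. The part of either kind of cell in the level of Epor was not tested.

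The promoters of Epor and Csf2rb2 are shown because these were the receptor genes that rose after 5-FU (RefSeq, GRCm38.p6, 250 bases before to 50 after the start of transcription, 5′ to 3′ on the gene's strand). Capitals mark matches, on either strand, to a GATA word (GATA with A or T before it and A or G after it) or to an Ets word (GGAAG with A or C before it).
Epor, chr9:21963527-21963826, minus strand: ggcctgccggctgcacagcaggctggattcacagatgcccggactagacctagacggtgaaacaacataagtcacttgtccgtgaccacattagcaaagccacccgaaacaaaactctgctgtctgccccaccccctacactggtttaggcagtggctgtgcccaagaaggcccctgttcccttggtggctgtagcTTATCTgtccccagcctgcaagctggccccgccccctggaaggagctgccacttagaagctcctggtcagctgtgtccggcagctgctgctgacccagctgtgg
Csf2rb2, chr15:78305672-78305971, minus strand: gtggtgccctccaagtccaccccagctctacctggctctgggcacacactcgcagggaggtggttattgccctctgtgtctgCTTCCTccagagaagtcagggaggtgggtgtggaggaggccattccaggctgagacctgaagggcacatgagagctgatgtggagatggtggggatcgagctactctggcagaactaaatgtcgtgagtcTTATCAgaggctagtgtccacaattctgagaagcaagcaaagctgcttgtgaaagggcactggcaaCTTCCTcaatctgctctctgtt
The Epor promoter held 1 GATA word, 54 bases before the start, and 0 Ets words. That of Csf2rb2 held 1 GATA word, 38 bases before the start, and 2 Ets words. RefSeq promoters were matched for 8 of the 10 genes, with 10 entries, of which 3 held a GATA word and 6 an Ets word. Kit gave 2 of these entries, which start at 75574737 and 75574741 and overlap nearly in full. They hold the same Ets word, which is thus counted in both. Of 32851 promoters of the same length, 29.8% held a GATA word and 46.5% an Ets word. Words of these lengths occur often, and a match is not evidence of binding.

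Il6st (chromosome 13, 112464070 to 112510086, plus strand) encodes gp130, the signalling chain for IL-6, IL-11, oncostatin M and LIF. It ran from 15.3 to 42.2 CPM in mutant 5-FU, 37.8 to 48.3 in wild-type 5-FU, 15.1 to 46.6 in mutant PBS and 14.9 to 35.4 CPM in wild-type PBS. All 3 wild-type 5-FU libraries lay above the wild-type PBS libraries, with a difference of 0.66 ± 0.36 that missed the threshold (adjusted p = 0.191). Mutant and wild type differed by −0.44 ± 0.41 after 5-FU (adjusted p = 0.557).

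Il1r1 (chromosome 1, 40225080 to 40317257, plus strand) encodes the receptor through which IL-1 acts on progenitors. It had 15.6, 16.2 and 17.5 CPM in mutant 5-FU and 48.7, 55.4 and 48.3 CPM in wild-type 5-FU. Mutant PBS libraries held 37.5, 39.6, 15.6, 32.8 and 36.5 CPM, and wild-type PBS libraries 52.4, 32.8, 22.4, 34.9 and 56.6 CPM. The mutant 5-FU libraries formed a narrow, low group, while the wild-type 5-FU libraries lay within the range of wild-type PBS. Genotype after 5-FU gave −1.63 ± 0.34 (adjusted p = 0.026). The direction held in all 19 alternatives, 10 of which passed. The call ended without any 1 of the 6 5-FU libraries (−1.68 to −1.57, adjusted p = 0.0503 to 0.12), when the writing of the codes was modelled (−1.37, 0.236) and on TPM (−2.33, 0.189, and −2.57, 0.328). The response to 5-FU was −0.98 ± 0.31 in the mutant (adjusted p = 0.133) and 0.35 ± 0.29 in wild type (adjusted p = 0.389), and they differed by −1.33 ± 0.42 (adjusted p = 0.205). Without mutant PBS replicate 3 the mutant response was −1.18 (adjusted p = 0.0269) and the difference between the responses −1.54 (adjusted p = 0.0415). The mutant response passed in 6 of 23 alternatives, among them the immunoglobulin covariate with all libraries kept (−1.15, adjusted p = 0.0135). The difference between the responses passed in 4 of 28.

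Among the PBS libraries of each genotype, Kit and Csf3r were lowest in the library with the highest immunoglobulin share, as was Il1r1, although Il1r1 followed no order of the share among the other mutant PBS libraries (32.8 to 39.6 CPM). In mutant PBS, Kit was 332 CPM at a share of 3.67% and 95.5 CPM at 50.2%, and in wild-type PBS it was 471 CPM at 6.37% and 111 CPM at 44.2%. Among the mutant 5-FU libraries, replicate 3 had a share of 5.69%, near the lowest of the PBS libraries, and held 121 CPM of Kit, 66.0 CPM of Csf3r and 17.5 CPM of Il1r1. The PBS libraries of like share, mutant replicate 5 and wild-type replicate 5, held 332 and 471 CPM of Kit, 125 and 135 CPM of Csf3r, and 36.5 and 56.6 CPM of Il1r1. With the immunoglobulin share as a covariate, the difference between genotypes after 5-FU was −0.73 for Kit (adjusted p = 0.382), −0.71 for Csf3r (0.182), −1.29 for Il1r1 (0.0239), −1.58 for Csf2rb (0.0159) and −2.09 for Csf2rb2 (0.0127). For Epor in wild type, the covariate gave 0.67 (0.476). The wild-type 5-FU libraries, at 0.0392 to 0.332%, did not overlap in share with any other group. These adjusted values therefore extend a slope found within the groups across that gap, and do not show the groups at equal share.

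**Figure D4:**
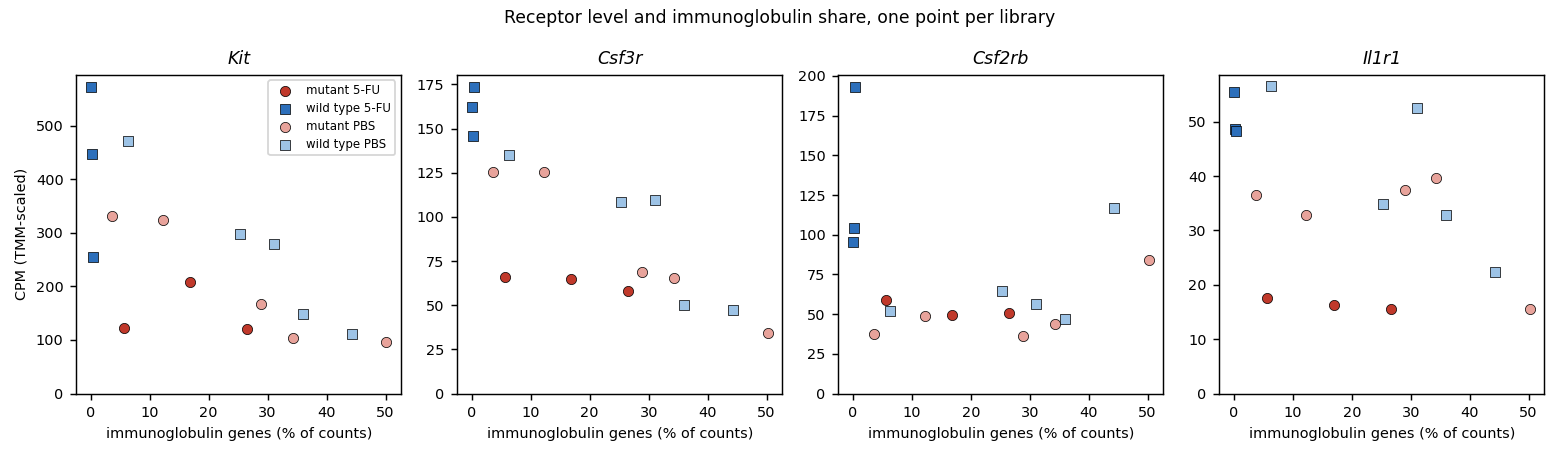
Level of Kit, Csf3r, Csf2rb and Il1r1 (y axis: TMM-scaled CPM) against the share of counts from immunoglobulin genes (x axis, percent), 1 point per library, red circles for the mutant and blue squares for wild type, dark for 5-FU and pale for PBS. The mutant 5-FU library at 5.69% holds 17.5 CPM of Il1r1, while the PBS libraries at 3.67 and 6.37% hold 36.5 and 56.6 CPM.

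Genes that work beside these receptors were grouped into lists of sister receptor chains (12 tested), ligands (8 of 16 tested), kinases, adaptors and phosphatases (24), STAT factors (5) and feedback and target genes (17). Their counts stand beside the shares of all genes called: between genotypes after 5-FU, 1.49% with more and 0.461% with less mRNA in the mutant, 5.55% higher and 9.31% lower after 5-FU in wild type, 0.837% higher and 1.36% lower in the mutant response, and 0.558% positive and 0.0303% negative for the difference of the responses. Of the sister chains, after 5-FU, 2 were higher and 1 lower in the mutant. Flt3, a receptor tyrosine kinase of the same class as Kit, was the lower one, at 17.8 to 22.7 CPM in mutant 5-FU and 104 to 162 CPM in wild-type 5-FU (−2.56 ± 0.29, adjusted p = 0.00107). It also fell after 5-FU in the mutant (−4.13 ± 0.30, adjusted p = 1.93e-06) and in wild type (−1.78 ± 0.26, adjusted p = 0.000791), and the responses differed (−2.35 ± 0.35, adjusted p = 0.00798). The other sister chain whose response differed was Il5ra (4.92 ± 1.04, adjusted p = 0.0412; up to 0.175 without 1 library). Both higher genes were read little in wild-type 5-FU: Il5ra, the IL-5 receptor alpha chain, at 1.61 to 20.1 CPM in the mutant and 0.456 to 0.585 CPM in wild type (4.05 ± 0.87, adjusted p = 0.0284), and the prolactin receptor Prlr at 2.46 to 11.1 CPM in the mutant and 0 to 0.213 CPM in wild type (6.06 ± 1.36, adjusted p = 0.0358). Flt3 passed without each of the 5-FU libraries in turn, while the adjusted p reached 0.153 for Il5ra and 0.188 for Prlr. Il5ra is carried by eosinophils, whose 6 marker genes summed to 80.4 to 97.6 CPM in mutant 5-FU and 3.59 to 9.27 CPM in wild-type 5-FU, with the eosinophil granule genes Epx and Ear1 at 0 in both. Prg2 (mean 59.9 CPM in the mutant and 0.792 in wild type) and Ear2 (23.9 and 0.0405 CPM) made up most of that sum, Siglecf stood the other way (1.07 and 5.94 CPM), and Ear2 was the 1 gene of the 6 that passed the test. Eosinophil genes were not alone in this. The 8 plasma cell genes summed to 2268 to 19310 CPM in mutant 5-FU and 137 to 376 CPM in wild-type 5-FU. The 8 B cell genes summed to 100 to 456 and 22.9 to 35.8 CPM. Of these lists 6 and 4 genes were called higher in the mutant, beside 1.49% of all genes. The sums of 9 T and NK cell genes overlapped (74.9 to 172 and 124 to 204 CPM), with 4 called higher. The part of any of these cells was not tested. In wild type 4 sister chains fell after 5-FU, Flt3, Il5ra (−5.13 ± 0.89, adjusted p = 0.00203), the decoy IL-1 receptor Il1r2 (−2.0 ± 0.37, adjusted p = 0.00317) and Prlr (−7.41 ± 1.39, adjusted p = 0.00392). In the mutant 2 fell, Flt3 and Il1r2 (−2.57 ± 0.38, adjusted p = 0.00191).

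Among the ligands, 1 was higher in the mutant after 5-FU, the IL-1 receptor antagonist Il1rn, at 0.0787 to 6.26 CPM in the mutant and 0 to 0.114 CPM in wild type (adjusted p = 0.0447), where it amounted to 4 reads in all; the groups overlapped, and the adjusted p reached 0.231 without 1 library. It fell after 5-FU in wild type (adjusted p = 0.00891; up to 0.0626 without 1 library), beside 0.544 to 10.4 CPM in wild-type PBS. Il5, which acts through Csf2rb, was read 174 times in the mutant 5-FU libraries (0.698 to 3.34 CPM) and 0 times in mutant PBS, and its test missed the threshold (adjusted p = 0.0599).

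Of the 24 kinases, adaptors and phosphatases, 6 rose after 5-FU in wild type. The risers with the smallest p were the Src-family kinase Fyn (1.31 ± 0.32, adjusted p = 0.0154), the docking protein Gab2 (1.25 ± 0.31, adjusted p = 0.0163) and Myd88, the adaptor of the IL-1 receptor (0.97 ± 0.25, adjusted p = 0.0209). None of the 24 passed in the mutant, where Myd88 had 0.92 ± 0.25 (adjusted p = 0.0796). Leaving out 1 library ended the wild-type calls of Fyn (adjusted p up to 0.0779), Gab2 (0.117) and Myd88 (0.115).

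Of the STAT factors, which JAK kinases activate, 2 of 5 rose after 5-FU in wild type. Stat5a had 140 to 188 CPM in wild-type 5-FU and 44.5 to 102 CPM in wild-type PBS (1.20 ± 0.35, adjusted p = 0.0315), and Stat3 had 315 to 375 against 79.9 to 221 CPM (1.23 ± 0.38, adjusted p = 0.041). None passed in the mutant (Stat3 0.42 ± 0.38, adjusted p = 0.737) or between genotypes after 5-FU (Stat5b −0.95 ± 0.46, adjusted p = 0.278). Both wild-type calls ended without 1 library or another, with adjusted p up to 0.145 for Stat5a and 0.16 for Stat3.

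Among feedback and target genes, Cish, a STAT5-induced inhibitor of cytokine signalling, was higher in the mutant after 5-FU, at 31.3 to 45.2 CPM in the mutant and 11.5 to 20.4 CPM in wild type (1.31 ± 0.27, adjusted p = 0.025). In wild type it fell after 5-FU (−0.90 ± 0.25, adjusted p = 0.025), as did Ccnd2, a cyclin of cell cycle entry (−1.40 ± 0.31, adjusted p = 0.00894), and the survival gene Mcl1 (−0.73 ± 0.21, adjusted p = 0.0317), while 3 of the 17 rose, with the kinase Pim2 first (0.93 ± 0.24, adjusted p = 0.019). In the mutant 2 rose, Socs2, another STAT5 target that restrains signalling (1.86 ± 0.38, adjusted p = 0.0137), and Bcl2l1, which encodes the survival protein Bcl-xL (0.85 ± 0.21, adjusted p = 0.0478). The difference between the responses was 1.41 ± 0.34 for Cish (adjusted p = 0.076). Leaving out 1 library took the adjusted p of Cish up to 0.153 between genotypes and 0.144 in wild type, and ended the calls of Ccnd2 (up to 0.0515), Mcl1 (0.126), Pim2 (0.0634), Socs2 (0.0582) and Bcl2l1 (0.261). Under PBS none of the genes in these 5 lists passed between genotypes, and the smallest p of each list belonged to Osmr, Il5, Jak2, Stat6 and Spry1 (adjusted p = 1 each).

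The pattern of each receptor over the 16 libraries was set beside 13286 other genes, by the root mean square difference of their centred log2 CPM. For Kit, the closest were Inpp5d (0.24), which encodes the phosphatase SHIP1, Plcg1 (0.241), a phospholipase, and Zfp521 (0.282), a zinc-finger protein. For Epor they were Gata1 (0.442), the erythroid GATA factor, Fstl1 (0.464) and Gch1 (0.468). Csf2rb2 had Dock9 (0.604), Deptor (0.616) and Ffar2 (0.62), and Il1r1 had Sh2d5 (0.237), Tspan2 (0.265) and Fut7 (0.334). Among the 10 receptors, the closest pairs were Kit with Csf3r (0.362), Csf3r with Il1r1 (0.451) and Kit with Il1r1 (0.569), while the neighbouring beta chains Csf2rb and Csf2rb2 differed by 0.685. Genes of 1 library share its depth and its immunoglobulin share, so these values describe likeness in these samples.

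Per transcript length, the order of the receptors differed between groups below the top 2. In mutant 5-FU, Csf3r (25.6 TPM), Epor (23.6 TPM), Csf2ra (16.6 TPM) and Csf1r (15.5 TPM) followed Kit, and of these only Epor lay above the next gene in all 3 libraries. In wild-type 5-FU, Csf3r (119 TPM) and Csf2rb (60.7 TPM) each lay above the next gene in all 3 libraries, and of Il1r1 (25.0 TPM), Epor (22.4 TPM), Il3ra (19.3 TPM), Il6st (19.0 TPM) and Csf2ra (18.7 TPM) each lay above the next in this order in 2 of 3 libraries. Mutant PBS had Csf3r (34.3 TPM), Csf2ra (18.5 TPM) and Csf2rb (9.42 TPM) after Kit, and wild-type PBS Csf3r (32.7 TPM), Csf2ra (16.6 TPM) and Csf2rb (11.6 TPM). The lowest was Csf2rb2 in mutant 5-FU (1.83 TPM), mutant PBS (1.32 TPM) and wild-type PBS (0.778 TPM), and Csf1r in wild-type 5-FU (4.62 TPM), where all 3 libraries had more Csf2rb2 than Csf1r.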

How the data were processed

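Per the labels' protocols, cells were sorted into LSK fractions, total RNA came from RNeasy Micro columns and cDNA libraries from the NuGEN Ovation Ultralow kit. The submitters' processing notes name FastQC 0.11.2, RSEM 1.3.1 and the builds mm10 and GRCm38; which aligner was run is not given in the sources used here. Each table the authors deposited holds, per the file headers, an RSEM expected count per gene, which assigns reads by a model and is not scaled to the library, and TPM; deposited FPKM values were not used. Reads shared by similar genes are divided by that model. Total expected counts were 19370153 to 28883365 per library. No pair of libraries held identical values.

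Expected counts were rounded, filtered with filterByExpr (minimum count 10), scaled with TMM and tested with the robust quasi-likelihood F test of edgeR 4.0.16 in R 4.3.3, with 1 mean per group over all 16 libraries, Benjamini-Hochberg adjustment over 16482 genes and a threshold of 0.05. The SE was taken from the log2 fold change and F. The fit was also run on simulated counts. These were drawn without differences between libraries in immunoglobulin share or code writing, so that run cannot speak to either. Alternatives were RLE and upper-quartile scaling, TMM without immunoglobulin genes, no filter, DESeq2 1.42.0, limma 3.58.1 (voom with sample quality weights, and trend on log2 TPM with pseudocounts of 1 and 0.1), only the 2 groups compared, the immunoglobulin share or the writing of the codes as covariates, subsets by code, the replicate number as a block, and 16 fits without 1 library each.

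All 10 receptors were named in every comparison. From each list of pathway genes, up to 4 past the threshold with the smallest p were named, or the 1 with the smallest p where none passed, and the 3 genes nearest in pattern were named for a receptor. One pathway gene that the rule selects is not reported here. The receptors and all lists were chosen with earlier results of these data known. Same-numbered samples of the 2 PBS groups deviated together (correlations of deviations from the group means 0.165, 0.243, 0.494, 0.342 and 0.569). Mutant PBS replicate 4, however, correlated best with wild-type PBS replicate 5. Replicate 3 had the highest immunoglobulin share in both groups, so these correlations do not establish a pairing. In the other comparisons not every correlation was above 0.1. Gene positions are those of GENCODE M21 (GRCm38), and promoters those of RefSeq.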

Additional observations from a re-analysis of the deposited data

Results flagged for a closer look

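Within the PBS groups, 20 sets of 5 libraries (10 receptors in 2 groups) were searched for 1 library far from the others, with a gap of more than 0.71 of the group's range; chance flags about 1 in 20 such sets. The search found 3. Csf2rb stood apart at 84.1 CPM in mutant PBS replicate 3 (gap 0.743 of the range; the other 4 libraries had 36.4 to 48.6 CPM) and at 117 CPM in wild-type PBS replicate 3 (gap 0.745; the others had 46.8 to 64.7 CPM). Il1r1 stood apart at 15.6 CPM in mutant PBS replicate 3 (gap 0.718; the others had 32.8 to 39.6 CPM). Both libraries had the highest immunoglobulin share of their group, 50.2% and 44.2%. Their TMM factors, 0.508 and 0.547, were the lowest of all libraries. In TPM, Csf2rb was not high in them. It had 5.45 TPM in mutant PBS replicate 3 (group range 5.45 to 14.8) and 8.32 TPM in wild-type PBS replicate 3 (6.38 to 19.8). Il1r1 was lowest in mutant PBS replicate 3 in TPM too (0.84, group range 0.84 to 14.8). The part of the immunoglobulin share or of the scaling in these levels was not tested.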

How the results depend on the processing

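Of the 10 receptor genes, 2 were called for genotype after 5-FU, 0 for genotype under PBS, 3 for 5-FU in wild type, 1 for 5-FU in the mutant and 0 for the difference of the responses. Genotype under PBS stayed at 0 in every alternative run. For genotype after 5-FU the count was 1 with upper-quartile scaling and on log2(TPM + 1) and log2(TPM + 0.1), 5 with DESeq2 and with the replicate block, 8 with limma-voom, 6 with only the 2 groups compared and 0 with code writing as a covariate, and 0 to 1 without 1 library. In wild type it was 5 with DESeq2, 7 with limma-voom and on log2(TPM + 1), 6 on log2(TPM + 0.1) and with the replicate block, and 1 to 3 without 1 library. In the mutant it was 2 with DESeq2, limma-voom, the immunoglobulin covariate, 1 code prefix and the libraries of highest immunoglobulin share left out, 0 on both TPM scales and with only the 2 groups, and 1 to 2 without 1 library. For the difference of the responses it was 1 without the filter, on log2(TPM + 1), with the replicate block, with the immunoglobulin covariate and without the libraries of highest immunoglobulin share, 3 with DESeq2 and with limma-voom, and 0 to 2 without 1 library. Over all genes, genotype after 5-FU had 321 calls, against 1308 with DESeq2, 5074 with limma-voom, 157 and 199 on TPM, 2080 with only the 2 groups, 1524 with the replicate block, 42 with code writing and 17 to 206 without 1 library. 5-FU in wild type had 2450, against 4591, 6993, 7509 and 5736 on TPM, 7318 with the block, 681 with the immunoglobulin covariate, 1012 with code writing, 189 within 1 prefix, 1572 among codes of the same writing, 3949 without the libraries of highest immunoglobulin share and 526 to 3233 without 1 library. 5-FU in the mutant had 362, against 887, 1546, 155 and 136 on TPM, 210 with only the 2 groups, 1014 with the block, 607 with the immunoglobulin covariate, 887 with code writing, 178 among codes of the same writing, 812 without the libraries of highest share and 156 to 405 without 1 library. The difference had 97, against 582, 736, 64 on log2(TPM + 1), 383 with the block, 193 with the immunoglobulin covariate, 27 with code writing, 171 without the libraries of highest share and 11 to 309 without 1 library. The block changed no receptor call under PBS, and samples of the same number are not known to be paired in any comparison.

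TPM moved the median of all genes, to 1.01 and 1.297 for 5-FU in wild type (pseudocounts of 1 and 0.1), 0.33 and 0.48 in the mutant, −0.59 and −0.76 for genotype after 5-FU and −0.68 and −0.86 for the difference, and upper-quartile scaling moved it to −0.24 in wild type; the log2 values below are not relative to these medians. On log2(TPM + 1) and log2(TPM + 0.1), these turned sign: Csf2ra in wild type (0.29, 0.31), in the mutant (0.032, 0.049), for genotype after 5-FU (−0.23, −0.24) and PBS (0.031, 0.022) and for the difference (both −0.26); Epor for genotype after 5-FU (−0.031, −0.037) and the difference (−0.13, −0.093); Csf3r (0.19, 0.25), Il3ra (0.46, 0.53) and Kit (0.10, 0.12) in the mutant; and Ccnd2 (0.12, 0.12), Cish (0.54, 0.58) and Mcl1 (0.79, 0.80) in wild type. Csf2rb2 in the mutant, 0.0040 in the report, was −0.022 with DESeq2, −0.024 with RLE, −0.032 with TMM without immunoglobulin genes, −0.012 with only the 2 groups, −0.069 with upper-quartile scaling, −0.067 with the replicate block, −0.17 with code writing and −0.14 among codes with a leading zero. Code writing also turned Csf2rb (−0.047), Csf3r (0.096) and Kit (0.23) in the mutant, Kit (0.19) and Stat5a (0.075) for the difference and Stat5b for genotype after 5-FU (0.11). The immunoglobulin covariate turned Csf3r (−0.16), Il1r1 (−0.19) and Kit (−0.41) in wild type. Under PBS, limma-voom turned Csf2ra (0.020), Epor (−0.27) and Il6st (−0.19), the replicate block Epor (−0.017), codes with a leading zero Epor (−0.50), codes without one Csf2ra (0.22), Csf3r (0.042) and Il6st (−0.17), and leaving out the libraries of highest immunoglobulin share, chosen after the data were seen, Csf2ra (0.047) and Il6st (−0.10). Codes with a leading zero turned Csf2rb (−0.086), Csf3r (0.14) and Kit (0.27) in the mutant, the replicate block Csf3r (0.15) and Kit (0.26) there, 1 code prefix Kit in the mutant (0.16) and wild type (−0.60), and upper-quartile scaling Il3ra for genotype after 5-FU (0.021). Without 1 library, signs changed under PBS for Csf2ra (−0.17 to 0.035), Csf3r (−0.30 to 0.12), Epor (−0.13 to 0.27), Il6st (−0.15 to 0.23) and Stat6 (−0.40 to 0.051), in the mutant for Csf2rb (−0.019 to 0.32), Csf2rb2 (−0.14 to 0.31), Il3ra (−0.40 to 0.0055) and Il6st (−0.17 to 0.46), and for Il3ra in genotype after 5-FU (−0.26 to 0.10). Csf2ra in wild type was the 1 receptor value past the threshold that turned sign. The cause was not tested in any case. Leaving out 1 library ended both receptor calls between genotypes after 5-FU and that of Epor in wild type. The effect of depth on these calls was not tested.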

Other observations

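Gata1, the erythroid GATA factor and the gene nearest to Epor in pattern, had 31.5 to 72.3 CPM in mutant 5-FU, 38.2 to 57.0 in wild-type 5-FU, 9.79 to 25.8 in mutant PBS and 8.44 to 25.8 CPM in wild-type PBS. Within each genotype every 5-FU library lay above every PBS library, as for Epor, and the genotypes overlapped both after 5-FU and under PBS. Gata2, whose enhancer carries the substitution, had 169 to 208 CPM in mutant 5-FU, 192 to 224 in wild-type 5-FU, 48.4 to 167 in mutant PBS and 54.1 to 113 CPM in wild-type PBS. Within each genotype every 5-FU library also lay above every PBS library for Gata2, narrowly so in the mutant. Among all genes, 16% lay above in this way in wild type and 5.05% in the mutant. The genotypes overlapped for Gata2 as well. Both genes were chosen after their values were seen.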
